A study of Mus musculus with 22 samples.

Results

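miR-210 is a microRNA (miRNA) whose level is known to rise in cells that are short of oxygen. It was followed here by its probe on a NanoString panel, mmu-miR-210, which is 1 of the 566 mouse miRNA probes among the 626 probes counted, and it was chosen by name in all 22 samples. The samples were 5 uninduced control fallopian tubes (CT), 5 doxycycline-induced fallopian tubes (FT), 5 metastatic tumors (M) and, from plasma, 3 samples of control mice (CS) and 4 of induced mice (TS). The mice carried conditional alleles of Brca1 or Brca2, and of other genes not reported here, under a Pax8-Cre system that doxycycline switches on, so recombination is limited to cells with active Pax8, such as the tubal epithelium, while the other cells of a tube keep intact alleles. The control mice carried such alleles without induction: CT1 and CT3 were Brca1 fl/fl, CT2 Brca1 fl/+, CT4 Brca2 fl/fl and CT5 Brca2 fl/+. Of the induced tubes, FT2 was Brca1 -/-, FT4 Brca2 -/- and FT1, FT3 and FT5 Brca2 -/+. Of the tumors, M1 and M3 were Brca2 -/-, M2 and M6 Brca1 -/+ and M4 Brca2 -/+. M1 to M4 were peritoneal metastases and M6 was a metastatic tumor of the ovary. The genotypes come from the study's supplement and not from the sample labels, and ages are not given in the sources used here. The mice of CT2 to CT4 also gave the plasma samples CS2 to CS4, and those of FT2 to FT5 gave TS1 to TS4, while some M samples came from mice that also gave an FT sample. Nothing else states how the samples of a group were related, so the p-values measure the spread between these samples.

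miRNAs are short RNAs that pair with messenger RNAs, mainly through bases 2 to 8 from their 5′ end (the seed), and lower the output of those messengers. miR-210 is a well-known target of the hypoxia-inducible transcription factors, and it lowers the iron-sulfur cluster scaffold proteins Iscu1/2 and with them mitochondrial respiration. It is often raised in solid tumors, and it is also present in red blood cells, so that lysed blood cells can add to its level in plasma.

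The mature sequences of both arms of the mouse miR-210 hairpin are shown because the panel's probe stands for the first of them. Capitals mark the seed.
mmu-miR-210-3p: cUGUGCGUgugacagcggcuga
mmu-miR-210-5p: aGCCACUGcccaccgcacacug
In RefSeq's annotation of GRCm38.p6, miR-210-3p lies at chr7:141221407-141221428 and miR-210-5p at chr7:141221445-141221466, both on the minus strand, within a hairpin of 110 bases at chr7:141221384-141221493. The hairpin overlapped 0 other genes of that annotation, with Rassf7 ending 2725 bases away on one side and Gm51460 starting 6712 bases away on the other. Of the 1738 mature mouse miRNAs in the table, 0 others shared the seed of miR-210-3p, so no family member was available for comparison.

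Values are counts of fluorescent barcodes. The miRNA probes of a tissue sample summed to between 70164 and 598321 counts, from 100 ng of RNA, and those of a plasma sample to between 18350 and 269005, from 10 ng. Each count was scaled by the sample's geometric mean over a fixed set of abundant miRNAs (100 in tissue, 30 in plasma) and brought back to the mean depth, giving normalized counts. The deposited count was called above background when it exceeded the mean plus 2 SD of the 8 negative control probes of the same sample. All 5 epithelial miRNAs (the miR-200 family with miR-141 and miR-429) were above background in every CT and FT sample, but only 1 of the 5 was in every M sample. The 5 miRNAs of ciliated cells (the miR-34b/c and miR-449 group) were above background in no M sample. In bulk tissue, a change in the number of cells of a type and a change in RNA per cell cannot be told apart.

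miR-210 was low and even in CT, spread widely in FT and was high in every M sample. In CT the normalized counts were 53.5, 83.2, 92.1, 66.2 and 63.2 (CT1 to CT5), a mean of 71.7 ± 15.6 (SD, n = 5). In FT they were 170, 1732, 90.8, 374 and 42.5 (FT1 to FT5), a mean of 482 ± 710 (SD, n = 5). In M they were 1635, 441, 738, 926 and 915 (M1 to M4 and M6), a mean of 931 ± 439 (SD, n = 5). The coefficient of variation was 21.8% in CT, 147% in FT and 47.2% in M. FT5 held the lowest value of all tissue samples and FT2 the highest, so the induced tubes alone spanned the whole range of the tissue samples. FT2 lay above every metastasis, FT4 and FT1 lay between the controls and the metastases, and FT3 and FT5 lay within or below the controls.

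**Figure D1:**
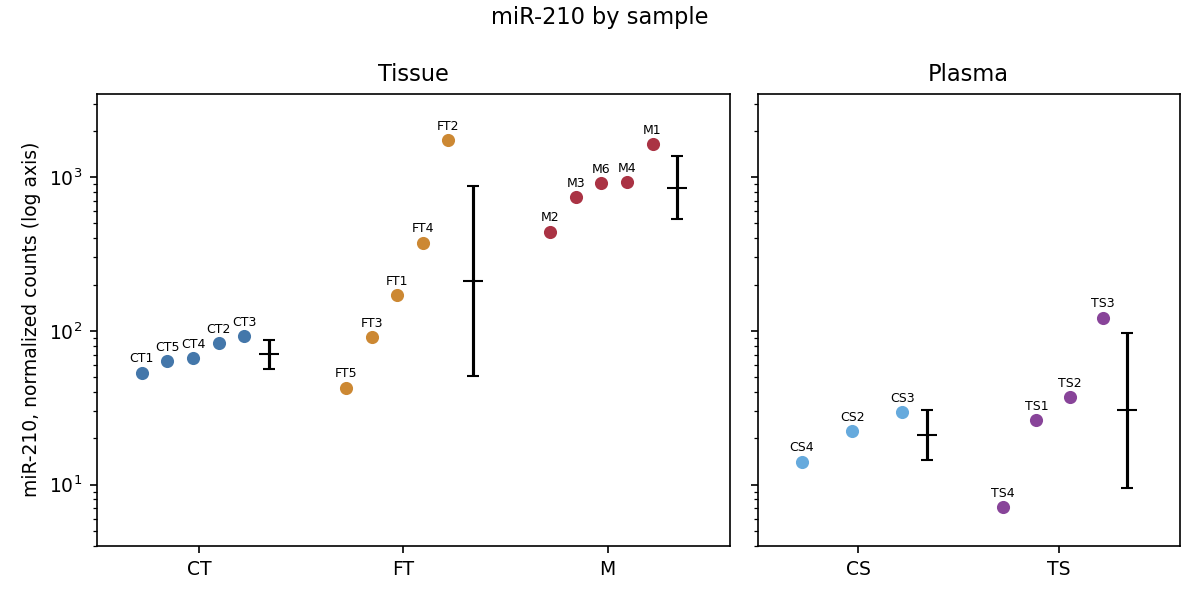
Normalized counts of miR-210 on a log axis, 1 labelled point per sample, in tissue (left: CT, FT and M) and plasma (right: CS and TS); black marks are geometric means and bars span 1 SD of the log values. All 5 M samples lie above the highest CT sample (92.1), whereas FT runs from 42.5 to 1732. Tissue and plasma were scaled apart.

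The deposited counts behind these values were 49, 127, 93, 89 and 27 in CT, 488, 731, 42, 188 and 78 in FT and 611, 474, 268, 383 and 1341 in M. miR-210 was above background in 4 of 5 CT samples, 5 of 5 FT samples and 5 of 5 M samples. CT5, with 27 counts against a background level of 43.5, was the exception, so its normalized count of 63.2 does not stand above background. The count was between 1.51 and 7.05 times the mean negative control in CT, between 3.65 and 55.7 times in FT and between 18.8 and 87.9 times in M. With the mean negative control subtracted first, the M samples differed from CT by 4.14 on the log2 scale.

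The M samples were compared with CT to ask what differs between tumors and the tissue they derive from. miR-210 was higher in M by 3.69 on the log2 scale (SE 0.505, a fold of 12.9, adjusted p = 0.000107, edgeR's quasi-likelihood test with Benjamini-Hochberg adjustment over all 566 miRNAs). The groups did not overlap, since the lowest M sample (441) stood above the highest CT sample (92.1). In an exact permutation test (two-sided), the mean log2 normalized counts differed by 3.58 with p = 0.00794, the smallest that 252 splits of 5 against 5 can give. Across the panel, edgeR called 10.2% of miRNAs higher in M, and 7.42% were higher without overlap, so miR-210 belonged to a sizeable group. The balance of all calls depended on the scaling, with 58 higher and 24 lower here but 42 higher and 71 lower when scaled to total counts, where miR-210 was still called higher (3.20). Within it miR-210 was in position 12 of 566 by fold and position 5 by p. The median miRNA differed by 0.29 on the log2 scale, and miR-210 stood 3.40 above it.

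In FT the direction was the same but the call was not made. The edgeR difference from CT was 2.74 on the log2 scale (SE 0.756, a fold of 6.69, adjusted p = 0.106), at a background of 0.177% of miRNAs called higher. FT samples stood above the highest CT sample in 3 of 5 cases, and the groups overlapped. The exact permutation test gave a difference in mean log2 normalized counts of 1.58 (two-sided p = 0.127), well under the fold of means, to which FT2 contributes most. Without FT2 the edgeR difference was 1.23 (adjusted p = 0.795). The call was made with DESeq2 (2.74, adjusted p = 0.00735) and with edgeR when FT3 (3.01, adjusted p = 0.0245) or FT5 (3.04, adjusted p = 0.0126), the samples with the lowest miR-210 in FT, was left out. The permutation test without FT5 gave 2.16 (two-sided exact p = 0.0317). With any other sample left out, that test gave p between 0.111 and 0.254. By position miR-210 was number 8 of 566 by fold and number 5 by p in the edgeR fit of all 10 samples.

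Between M and FT the difference was 0.95 on the log2 scale (SE 0.880, adjusted p = 0.993, edgeR), with 0.883% of miRNAs called higher in M. The exact permutation test gave a difference in mean log2 normalized counts of 2.0 (two-sided p = 0.0714). FT2 decides the size of this difference: without it, edgeR gave 2.46 (adjusted p = 0.0754). The permutation test without FT2 gave 2.75 (two-sided exact p = 0.0159). With any other sample left out, that test gave p between 0.0794 and 0.143. The groups overlapped through FT2 alone, because FT4, the next highest FT sample (374), was below the lowest M sample (441). The comparisons of FT and of M with CT share the control samples. Some M samples came from mice that also gave an FT sample, and the tests of M against FT given here treated the samples as independent.

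**Figure D2:**
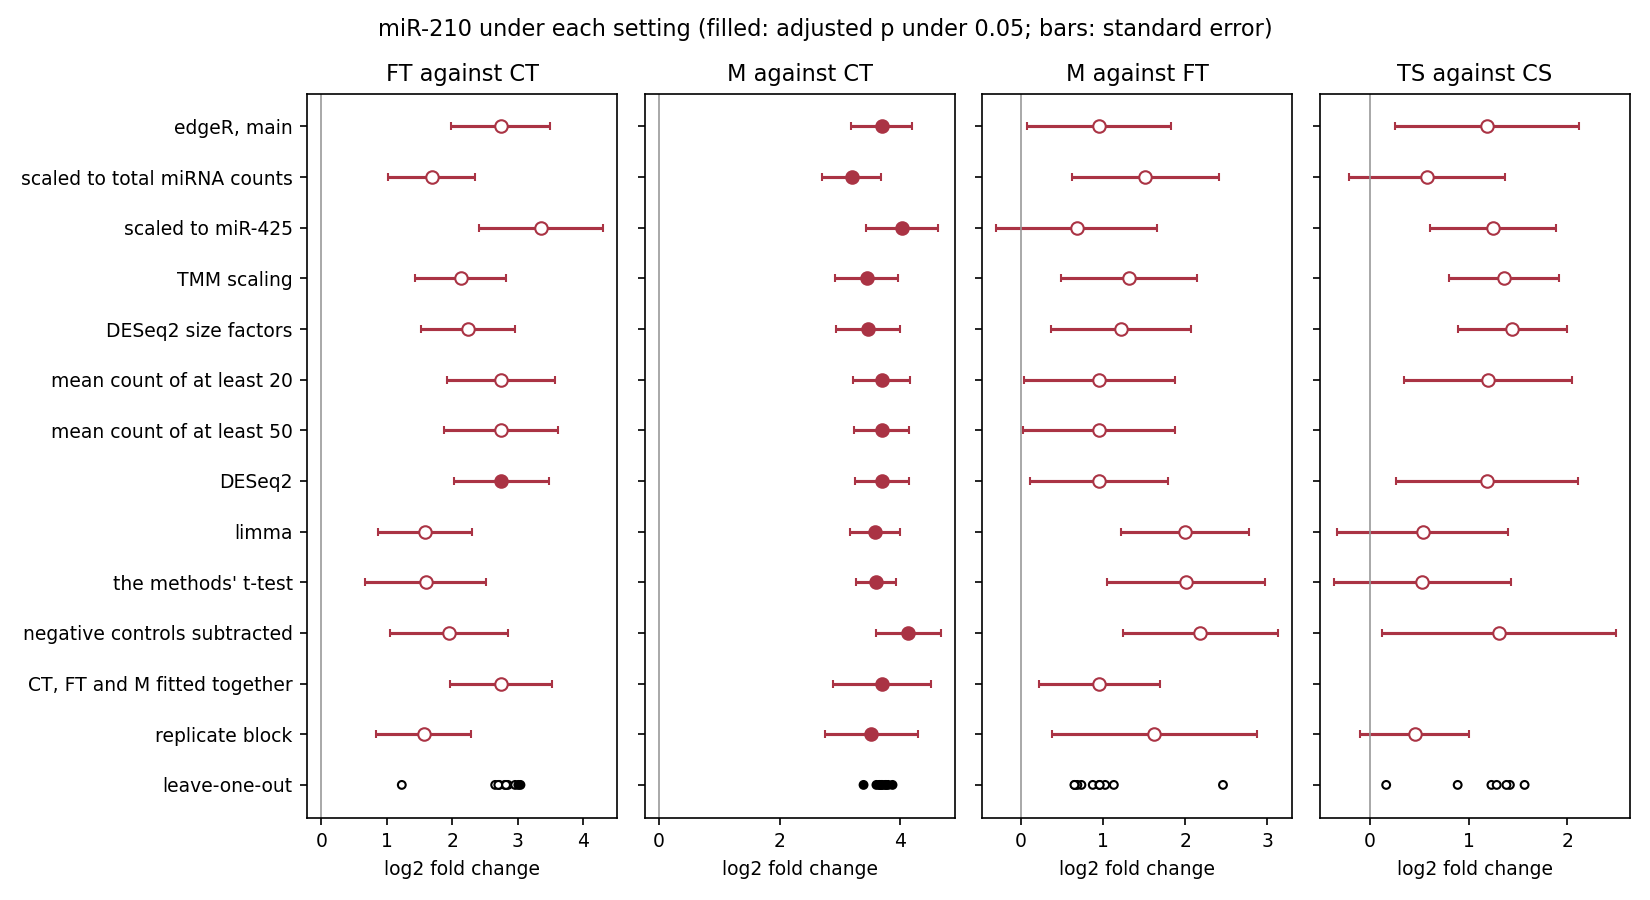
Log2 fold change of miR-210 (x axis) in 4 comparisons under each setting (rows), with bars of 1 SE; filled symbols have an adjusted p under 0.05, and the last row shows each fit with 1 sample left out. M against CT is filled in every row, between 3.20 and 4.14, while FT against CT is filled with DESeq2 and in 2 of the fits with 1 sample left out.

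Setting miR-210 against miR-425, the reference miRNA of the study, needs no scaling and gave a similar order. The miR-210 count was 34.2% to 97.9% of the miR-425 count in CT, 33.9% to 2150% in FT and 316% to 1852% in M. miR-425 itself differed between M and CT by -0.34 on the log2 scale (SE 0.375, adjusted p = 0.533, edgeR) and between FT and CT by -0.33 (SE 0.459, adjusted p = 0.786). Its normalized count in FT2 was 80.5, against 94.0 to 185 in CT. miR-425 was above background in 5 of 5 CT samples, 4 of 5 FT samples and 3 of 5 M samples. Its deposited count was 34 in FT2, against a background level of 36.1, and 33 in M1, against 44.7. The highest ratios, those of FT2 and M1, thus rest on background counts of miR-425.

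The rank of miR-210 within each sample, where rank 1 is the most abundant of the 566 miRNAs, depends on no scaling. It was 121, 93, 85, 104 and 142.5 in CT, 68, 29, 104, 44 and 132.5 in FT and 29, 55, 45, 39 and 38 in M. The mean rank was 109.1 ± 23.0 in CT, 75.5 ± 42.6 in FT and 41.2 ± 9.60 in M (SD, n = 5 each). All M ranks were ahead of all CT ranks (two-sided exact permutation p = 0.00794). The mean ranks of FT and CT (exact permutation p = 0.167) and of M and FT (exact permutation p = 0.135) did not pass the test. Without FT2, M and FT differed by -45.9 ranks (exact permutation p = 0.0476).

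Beside the Brca genotypes, given as a description because the labels form no such groups, the 2 FT samples that had lost both copies of a Brca gene, FT2 and FT4, had the highest values in FT (1732 and 374). The 3 that were Brca2 -/+ had 42.5 to 170. In M the genotypes overlapped: the Brca2 -/- tumors M1 and M3 had 1635 and 738, the Brca1 -/+ tumors M2 and M6 had 441 and 915, and the Brca2 -/+ tumor M4 had 926. M1 and M3 shared a Brca genotype and differed more than M4 and M6, which did not. In the uninduced controls, the 3 samples with 2 floxed copies of a Brca gene had 53.5, 92.1 and 66.2, and the 2 with 1 floxed copy had 83.2 and 63.2. The mice also differed in other alleles, and the part of these and of the Brca state in the miR-210 level cannot be told apart.

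In plasma miR-210 was near the limit of the assay. The normalized counts were 22.2, 29.6 and 14.1 in CS (CS2 to CS4), a mean of 22 ± 7.73 (SD, n = 3). In TS they were 26.2, 37.0, 122 and 7.14 (TS1 to TS4), a mean of 48.1 ± 50.8 (SD, n = 4). TS3 was the highest plasma sample and TS4 the lowest, so the groups overlapped. The deposited counts were 7, 4 and 34 in CS and 19, 34, 65 and 14 in TS. None of the 3 CS samples and 2 of the 4 TS samples, TS2 and TS3, were above background. The study instead used the mean plus 2 SD of the negative ligation controls, another set of control probes, to find expressed plasma miRNAs. By that level, 0 of 3 CS samples and 4 of 4 TS samples were above. CS2 and CS3 were below the mean of their own negative controls, at 0.406 and 0.381 times that mean, so their normalized counts show no more than background.

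**Figure D3:**
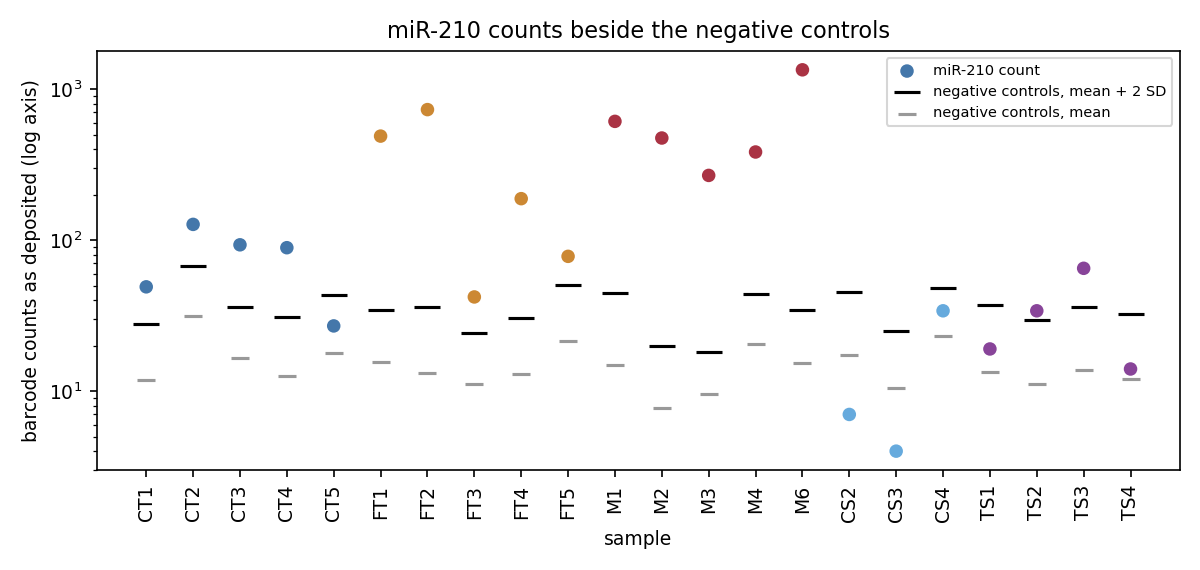
Deposited barcode counts of miR-210 (coloured points, log axis) in each of the 22 samples, with the mean of the 8 negative controls of the same sample (grey bars) and that mean plus 2 SD (black bars). CT5 and 5 of the 7 plasma samples lie at or under the black bar, and all FT and M samples lie above it.

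TS and CS were compared to ask whether the plasma of induced mice carried a difference. The edgeR difference was 1.19 on the log2 scale (SE 0.936, adjusted p = 0.570), and 0% of miRNAs were called higher in TS. Over all miRNAs, 0 were called in either direction after adjustment by edgeR, DESeq2 or limma, and 42, 58 and 29 had an unadjusted p under 0.05. The exact permutation test gave a difference in mean log2 normalized counts of 0.53 (two-sided p = 0.686), in a design of 35 splits in which the smallest possible p is 0.0571. The ranks of miR-210, which depend on no scaling, were 306, 411 and 168 in CS and 121, 121, 74 and 193.5 in TS. The mean ranks differed by -167.6 (two-sided exact permutation p = 0.114), and the groups overlapped. Most of these ranks rest on counts at background by the negative control probes. Without TS3 the edgeR difference was 0.16 (adjusted p = 0.913). No difference of miR-210 in plasma was called, with 4 samples against 3 and most counts at background by the negative control probes. The median miRNA differed by -0.89 between TS and CS with the geometric means but by -0.05 with TMM scaling, and miR-210 lay above it by 2.08 and 1.41.

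The 4 mice with both an induced tube and plasma gave no common order. The mouse of FT2, with the highest tissue level (1732), had 26.2 in plasma (TS1), and the mouse of FT4 (374) had the highest plasma level, 122 (TS3). The mice of FT3 (90.8) and FT5 (42.5) had 37.0 and 7.14 in plasma. Among controls, tissue levels of 83.2, 92.1 and 66.2 stood beside plasma levels of 22.2, 29.6 and 14.1, all of the latter at or under background. The difference between the FT and plasma effects was 1.55 on the log2 scale (SE 1.19, adjusted p = 0.549, edgeR interaction term). All 7 plasma samples share a mouse with a tissue sample of this fit, which treated the samples as independent. The difference was 0.02 without FT2 and 2.57 without TS3 (adjusted p = 0.998 and 0.262), and 0% of miRNAs were called higher in that test.

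Other miRNAs above a minimum mean count were then ordered by how closely they followed miR-210 over the 15 tissue samples. The measure was Pearson's r of log2(normalized count + 1) for the 140 others whose count averaged 50 or more, a description only, because the points share library, scaling and group differences. Of the 140, 73 had r above 0, 22 had r above 0.8 and 11 had r below -0.8, with a median of 0.07. The mean was taken over all 15 samples, so a miRNA low in CT could pass through samples where miR-210 was also high. miR-2134 (r = 0.87), for example, had mean normalized counts of 11.6 in CT and 3380 in M. The number with a high r thus depends in part on this filter. The mature sequences of the named miRNAs found among the RefSeq sequences used here are shown. Seeds are in capitals, to let them be compared with that of miR-210.
mmu-miR-22-3p: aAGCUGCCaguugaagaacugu
mmu-miR-1224-5p: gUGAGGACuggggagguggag
mmu-miR-1198-5p: uAUGUGUUccuggcuggcuugg
mmu-miR-29b-3p: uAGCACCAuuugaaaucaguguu
mmu-miR-29c-3p: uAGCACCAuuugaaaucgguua
mmu-miR-34b-5p: aGGCAGUGuaauuagcugauugu
mmu-miR-204-5p: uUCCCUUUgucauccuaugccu
None of these shares the seed of miR-210, and only miR-29b and miR-29c share a seed with each other. miR-532-5p, miR-2141 and miR-30b, also named, have no entry among the RefSeq sequences used here, so their seeds were not compared.

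The miRNAs most like miR-210 were miR-22 (r = 0.96), miR-532-5p (0.95), miR-1224 (0.94), miR-2141 (0.92) and miR-1198 (0.90). miR-22, the closest, is an abundant miRNA of many tissues. Its normalized counts were 1071 to 2089 in CT, 2394, 16178, 1297, 6755 and 1295 in FT and 6519 to 11129 in M. FT2 and FT4 were thus the highest induced tubes for miR-22 as for miR-210, and FT3 and FT5 the lowest. miR-532-5p had 15.3 to 32.8 in CT, 49.2, 632, 28.1, 105 and 28.3 in FT and 130 to 463 in M. Its CT values are mostly background, since it was above the background level in 1 of 5 CT samples, 4 of 5 FT samples and 5 of 5 M samples, so its r rests in part on such counts. The same holds for miR-1198, above background in 2 of 5 CT samples. miR-1224 had 42.4 to 71.3 in CT, 62.5, 2563, 62.7, 239 and 43.6 in FT and 494 to 13486 in M. With the group means subtracted, r was still 0.92 for miR-22, 0.87 for miR-532-5p and 0.86 for miR-1224. For miR-22 it was 0.97 within the 5 FT samples but 0.27 within the 5 M samples.

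At the other end were miR-29c (r = -0.92), miR-30b (-0.91), miR-34b-5p (-0.91), miR-29b (-0.91) and miR-204 (-0.87). The miR-29 family is known to lower collagens and other matrix genes, and miR-34b is found in ciliated cells. miR-29c had 1186 to 2656 in CT, 463, 109, 4190, 241 and 1395 in FT and 79.9 to 220 in M. Here FT3, low in miR-210, was the highest sample, FT2 (109) lay within the range of M, and FT4 (241) lay just above it. miR-204 had 997 to 2460 in CT, 622, 61.6, 1061, 89.5 and 1171 in FT and 3.72 to 34.8 in M. The counts of miR-204 in M were 4 to 20 as deposited, all below the background level of their samples. miR-34b-5p was above background in 0 of 5 M and 3 of 5 FT samples, and miR-30b in 3 of 5 M samples. The r of these miRNAs thus rests in part on background counts. Of the 10 miRNAs named, all 5 at the upper end rose in M against CT, by 2.29 (miR-22) to 6.31 (miR-1224) on the log2 scale (edgeR). All 5 at the lower end fell, of which miR-30b fell by 1.78 (adjusted p = 0.00576) and miR-204 fell by 6.37 (adjusted p = 1.85e-05). They were chosen on these same samples, so the counts describe the choice and add no support.

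**Figure D4:**
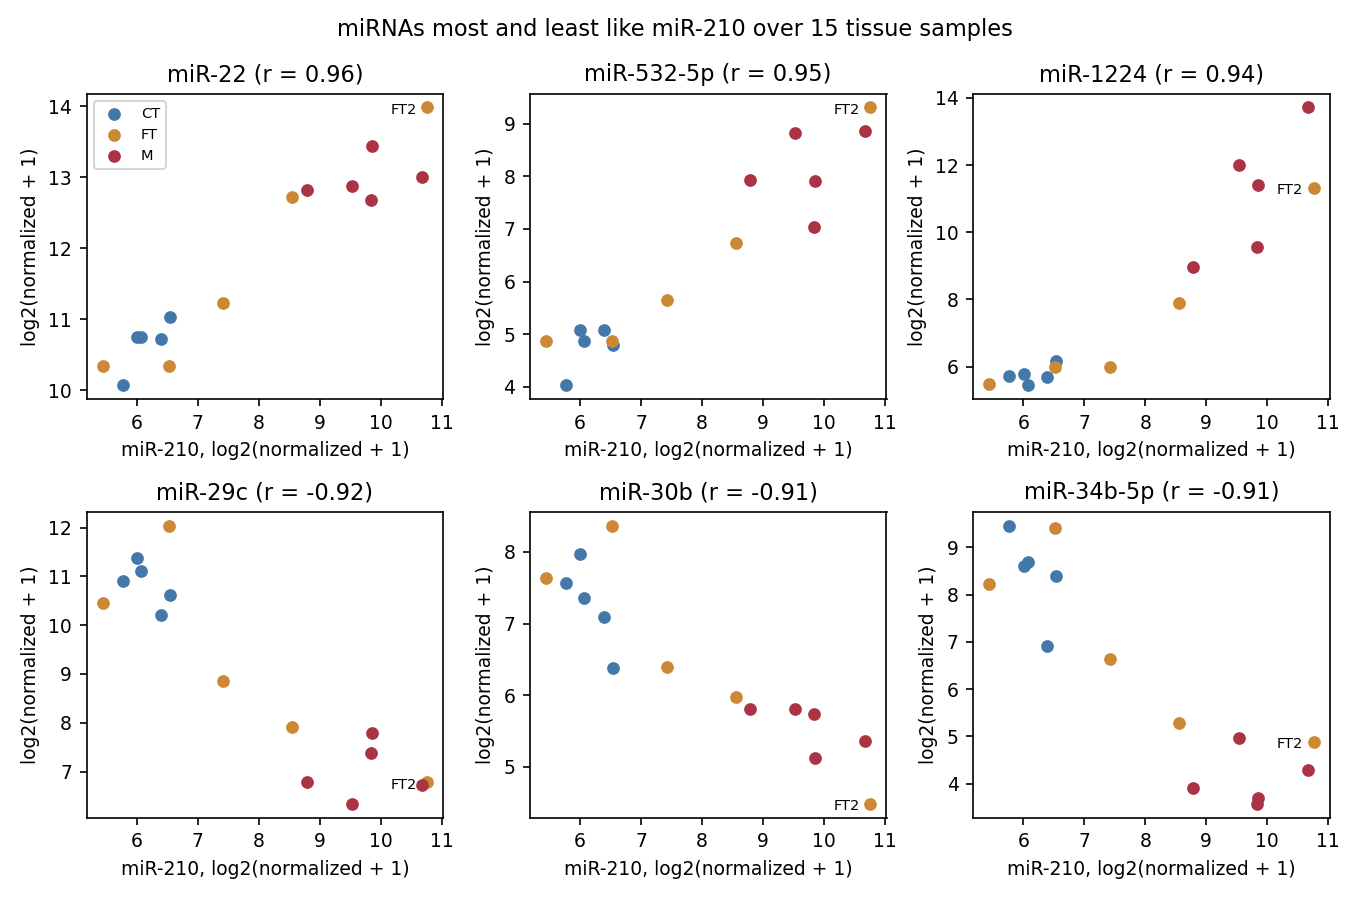
Log2(normalized count + 1) of the 3 miRNAs most like miR-210 (upper row) and the 3 least like it (lower row) against that of miR-210 in 15 tissue samples, coloured by group, with Pearson's r over the samples. FT2, labelled, has the highest miR-210 (1732) and lies far from the CT samples in each panel.

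Other miRNAs that have been reported to respond to low oxygen differed among themselves in how they lay beside miR-210. Of a list of 19, named in full in the methods, 0 were called in FT against CT, where 0.177% of all miRNAs were called higher and miR-210 itself was not. The highest FT difference in the list was 1.06 (miR-181a, SE 0.652, adjusted p = 0.759, edgeR). Between M and CT, 3 members were called higher and 2 lower, beside 10.2% and 4.24% of all miRNAs. miR-21, a widely raised tumor miRNA, rose by 2.30 on the log2 scale (SE 0.512, adjusted p = 0.00472), miR-93, of the miR-17 family, by 1.94 (SE 0.390, adjusted p = 0.00226) and miR-181a by 1.55 (SE 0.497, adjusted p = 0.0450). miR-125b-5p fell by 1.85 (SE 0.501, adjusted p = 0.0184), and miR-30b fell by 1.78 (SE 0.407, adjusted p = 0.00576). The median of the 19 was -0.30, against 0.29 over all 566 miRNAs, and the other 14 did not pass the test. Over the 15 tissue samples, r with miR-210 was 0.84 for miR-181a, 0.83 for miR-93 and 0.71 for miR-21, and -0.91 for miR-30b. It was also below 0 for miR-125b-5p (-0.82), miR-322 (-0.78), miR-26b (-0.71), miR-23b (-0.67) and miR-24 (-0.60). The same held for miR-195 (-0.60), miR-23a (-0.47), miR-103 (-0.46) and miR-27a (-0.42). The other members of the list did not reach the minimum mean count for r. In M against FT and in TS against CS, 0 of the 19 were called, with medians of -0.15 and -0.00 against 0.10 and -0.89 over all miRNAs. Of the 19, 11 were above background in every CT sample, 5 in every FT sample and 8 in every M sample. In plasma 4 were so in every CS sample and 8 in every TS sample. The calls and medians of the list thus rest in part on background counts.

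Because red blood cells also carry miR-210, the 4 erythrocyte miRNAs (miR-451, miR-144, miR-486 and miR-16) were set beside it. Their summed normalized counts were 2881 to 4771 in CT, 1623 to 7603 in FT and 2233 to 14358 in M. FT2, with the most miR-210, had the lowest sum of all tissue samples (1623), and M4, with 926 of miR-210, had the next lowest (2233). Most of the sum in tissue was miR-16, with 1241 in FT2 and 1875 in M4, so its order is largely that of miR-16. FT2 had 204 of miR-486, the highest in FT, and 163 of miR-451, within the 85.2 to 567 of CT. Over the 15 tissue samples, r of the log2 values was 0.14 for the sum, 0.22 for miR-451 and 0.82 for miR-486. miR-486 was the exception within the list. It had 13.1 to 25.8 in CT, 33.2 to 204 in FT and 81.9 to 409 in M, and it rose in M by 3.27 on the log2 scale (SE 0.512, adjusted p = 0.000254, edgeR). In FT against CT, where 0 of the 4 were called, miR-486 differed by 2.36 (SE 0.558, adjusted p = 0.0754), without overlap, as did 0.53% of all miRNAs. miR-451 differed between M and CT by 2.19 (SE 0.722, adjusted p = 0.05004). miR-144 and miR-486 were above background in no CT sample.

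In plasma the sums were 44989, 36832 and 17081 in CS and 65025, 25579, 24866 and 7721 in TS, and 0 of the 4 were called. TS1 had the highest sum and 26.2 of miR-210, whereas TS3, with the highest miR-210, had 24866, between the CS samples. TS4 was lowest in both.

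A readout that did move with miR-210 in tissue was the count of the housekeeping mRNA probes (Actb, B2m, Gapdh and Rpl19) relative to the miRNA count. The counts of the housekeeping mRNA probes per 100 miRNA counts were 1.49 to 4.62 in CT, 11.8, 31.5, 0.770, 12.05 and 1.995 in FT and 22.2, 6.93, 20.2, 47.4 and 11.9 in M. The log2 values had an r of 0.90 with miR-210 over the 15 samples (rho = 0.90), and 0.80 with the group means subtracted, while r with the total miRNA count was -0.12. FT1, FT2 and FT4, the induced tubes with the most miR-210, were also the 3 with the most housekeeping mRNA. The part of this readout in the miR-210 differences was not tested.

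**Figure D5:**
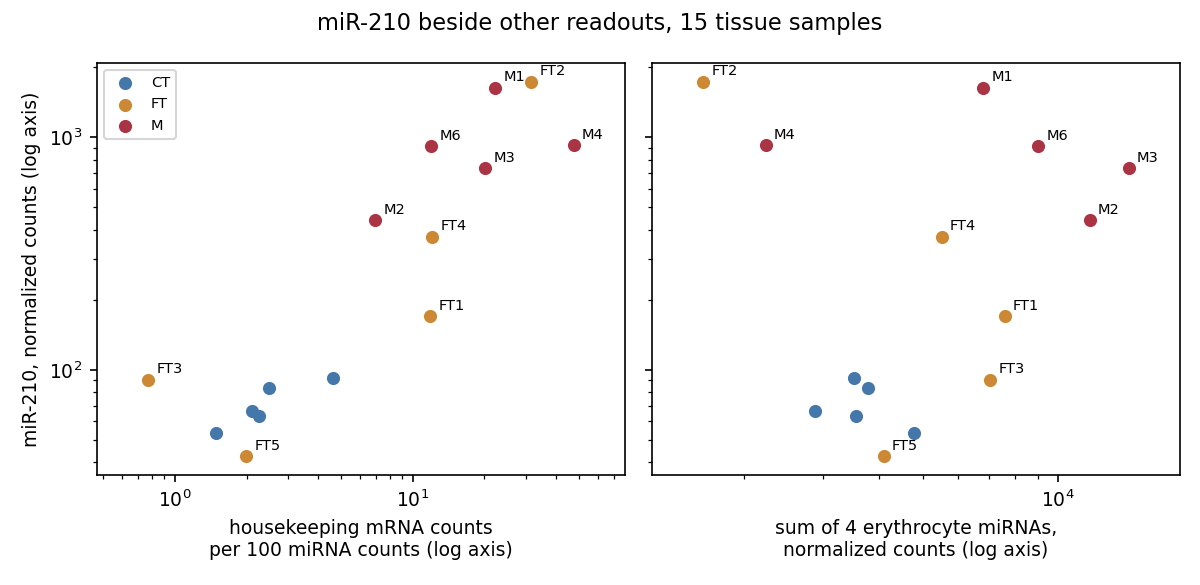
Normalized counts of miR-210 (y axis, log) in 15 tissue samples against housekeeping mRNA counts per 100 miRNA counts (left, log axis) and the summed normalized counts of 4 erythrocyte miRNAs (right, log axis), coloured by group. miR-210 follows the left readout (r = 0.90) and not the right one (r = 0.14), where FT2 is at the lowest sum. The right sum is mostly miR-16.

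Other marker lists were read in the same fits. Between M and CT, 3 of 5 smooth muscle and stroma miRNAs, 4 of 5 ciliated cell miRNAs and 1 of 5 epithelial miRNAs were lower, and 1 of 5 leukocyte, 1 of 2 endothelial and 1 of 3 liver miRNAs were higher, beside 4.24% lower and 10.2% higher among all miRNAs. In FT against CT, 1 of 3 liver miRNAs was higher, miR-122, which is the single call (0.177%) in that comparison. The summed smooth muscle and stroma level was 4713 to 13280 in CT, 3111 to 16868 in FT and 626 to 3821 in M, so it moved opposite to miR-210 between CT and M. The part of these shifts in the miR-210 level of M was not tested.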

How the data were processed

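The authors deposited barcode counts of the NanoString nCounter mouse miRNA assay v1.5, with 626 probes in each of 22 samples; all columns were matched (0 unmatched). The methods name nSolver 3.0 and normalization to the geometric mean of the top 100 (tissue) or top 30 (plasma) miRNAs without background subtraction, and this was repeated here with 1 fixed set each, the highest by mean count; miR-210 is number 65 of the tissue set. Whether controls were corrected before deposit is not given in the sources used here. The study left out M5 and CS1, which were not analysed here. Some alleles of the mice are not reported here.

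Groups were compared in pairs by the quasi-likelihood test of edgeR 4.0.16 under R 4.3.3 (geometric means as library sizes, 566 miRNAs, Benjamini-Hochberg, threshold 0.05, SE from the F statistic) and, for miR-210, with two-sided exact permutation tests. The scripts were tested on simulated data. Log2 values use a pseudocount of 1. Python 3.11.15, numpy 2.4.6, pandas 2.3.3, scipy 1.17.1 and matplotlib 3.10.9 were used. The sources give no genome build for the panel; coordinates are RefSeq's on GRCm38.p6.

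miR-210, the lists and the tests were chosen with earlier results of these data known. Named are miR-210, the 5 most and 5 least like it, miR-425, the marker lists and the low-oxygen list (miR-21, miR-23a, miR-23b, miR-24, miR-26a, miR-26b, miR-27a, miR-30b, miR-93, miR-103, miR-107, miR-125b-5p, miR-155, miR-181a, miR-181b with miR-181d, miR-181c, miR-192, miR-195 and miR-322). The other marker lists were leukocyte (miR-150, both arms of miR-142, miR-155 and miR-223), ciliated epithelium (miR-449a, miR-34c, miR-449b and both arms of miR-34b), endothelium (both arms of miR-126), epithelium (miR-141, miR-200c, miR-429, miR-200a and miR-200b), liver (miR-194, miR-122 and miR-192) and smooth muscle and stroma (miR-1, miR-133b, miR-145, miR-133a and miR-143). miR-155 and miR-192 are in 2 lists each.

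Alternatives were TMM, DESeq2 size factors, total count and miR-425 scaling, mean counts of at least 20 or 50, DESeq2 1.42.0, limma 3.58.1, the methods' t-test, subtraction of the negative controls, a joint fit of CT, FT and M, sample numbers as a replicate block, and each sample left out in turn. The labels call the TS source serum in one field and plasma in another, and plasma is used here.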

Additional observations from a re-analysis of the deposited data

Results flagged for a closer look

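In 8 of 42 groups of 4 or 5 samples, the gap between the highest or lowest sample and its nearest neighbour was a larger part of the group's range than Dixon's critical value allows; chance gives about 1 in 20 for independent groups. These groups are not independent, because the miRNAs other than miR-210 were chosen for following it, or opposing it, over the same samples, so the count of 8 is not set against chance. For miR-210 the same samples also entered more than once, as normalized counts, as log2 values and as ranks. FT2 was the high sample in 5 of them, all in FT: miR-210 (a gap of 0.804 of the range), miR-532-5p (0.872), miR-1224 (0.923), miR-2141 (0.941) and miR-1198 (0.793). For miR-210 the gap ran from 374 to 1732 normalized counts, and for miR-2141 from 378 to 5848. miR-210 was marked on its normalized counts only, and not on its log2 values or its ranks. FT3 was high for miR-29b in FT (0.768, 7806 against 1879). M1 was high for miR-1224 in M (0.724, 13486 against 4075), and M6, the metastasis of the ovary, for miR-29b in M (0.732, 752 against 256).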

How the results depend on the processing

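miR-210 in M against CT stayed past the threshold in 23 of 23 alternatives (3.39 to 3.87 with 1 sample left out, 3.20 to 4.14 otherwise). Its rank difference had a two-sided exact permutation p of 0.0159 in 10 of 10 (-73.9 to -59.5). That p is the smallest the remaining samples can give, and it follows from the ranks of M and CT not overlapping. In FT against CT the miR-210 difference lay between 1.23 and 3.04 with 1 sample left out and between 1.56 and 3.35 otherwise. The call was made in 3 of 23 alternatives, DESeq2 with 2.74 and the fits without FT3 and without FT5. miR-210 was not called in M against FT (0.65 to 2.46 with 1 sample left out), in TS against CS (0.16 to 1.57) or in the difference between tissue and plasma (0.02 to 2.57). In TS against CS, a mean count of at least 50 left out miR-210. The rank difference of M and FT was -45.9 without FT2 (exact permutation p = 0.0476) and lay between -45.9 and -20.1 over samples left out.

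The number of miRNAs called depended more on the setting. In FT against CT it was 1, and it was 0 with miR-425 scaling, limma and mean counts of at least 20 or 50, 2 with TMM and with DESeq2 size factors, 4 with DESeq2, and 0 to 12 with 1 sample left out (12 without FT3, 10 without FT5, 2 without FT1 and 0 without CT2 or CT3). At an unadjusted p under 0.05 there were 41 with edgeR and 19 with limma. In M against CT it was 82 (58 higher, 24 lower), and it was 113 with total scaling (42 and 71), 80 with miR-425 scaling (70 and 10), 160 with TMM (84 and 76), 162 with DESeq2 size factors (88 and 74), 124 with DESeq2 (86 and 38), and 50 to 101 with 1 sample left out (51 without CT1, 52 without CT3 and 50 without CT4). In M against FT it was 9, and it was 23 with total scaling, 2 with miR-425 scaling, 30 with DESeq2, 5 with limma and 4 to 33 with 1 sample left out (33 without FT2, 18 without M4, 15 without M6, 4 without FT3 and 5 without FT1 or FT4). The cause was not tested. The median log2 difference of all miRNAs moved from 0.15 to between -0.39 and 0.64 in FT, and from 0.29 to between -0.19 and 0.66 in M, over the scalings; miR-210 stood 2.07 to 2.72 above it in FT and 3.27 to 3.40 in M.

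Of the 10 miRNAs named for their likeness, 6 were still among the 5 at their end with total scaling, 3 with Spearman's rho and 5 with group means subtracted. Sample numbers did not pair the samples (correlations of deviations from -0.324 to 0.294 in FT and CT, and from -0.393 to 0.377 over all comparisons). With the numbers as a replicate block, miR-210 differed by 1.56 in FT against CT (adjusted p = 0.890), 3.52 in M against CT (adjusted p = 0.000168), 1.62 in M against FT (adjusted p = 0.998) and 0.45 in TS against CS (adjusted p = 0.543). The block changed no call of miR-210. By the supplement, samples of 1 number came from different mice, so the block does not test a pairing. Counts near the negative controls in CT5 and 5 of 7 plasma samples limit what can be read from them.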
